A study of Mus musculus with 8 samples.

Results

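The 10 transcripts described here are established markers of tubule injury, dedifferentiation and repair: *Havcr1*, *Lcn2*, *Vcam1*, *Krt8*, *Krt20*, *Spp1*, *Sox9*, *Clu*, *Cdkn1a* and *Timp1*. They were taken by name as a set of known markers, with earlier results of these data known, and are 10 of the 55401 genes quantified in each kidney. To ask whether kidneys that lose salt-inducible kinases (SIKs, kinases inhibited by PTH signaling) show a tubule injury program, RNA-Seq levels were compared between whole kidneys of 4 control and 4 SIK mutant mice. Control mice were SIK1f/f;SIK2f/f,SIK3f/f by their genotype labels, that is, floxed at all of these loci and without Cre. SIK mutants were labelled with the same floxed alleles plus Six2-Cre. The study's text describes the mutant as carrying a single floxed *Sik1* allele, so the 2 sources differ on *Sik1*. The labels name no treatment, age, sex or litter. Six2-Cre acts in nephron progenitors and their descendants (podocytes and tubules up to the connecting segment), so collecting duct, stromal, endothelial and immune cells of the mutant kidneys kept intact *Sik* genes while contributing to the same RNA.

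Injured tubule cells are known to lose their transport program, flatten, re-enter the cell cycle and switch on genes that are quiet in the healthy adult nephron. *Havcr1* and *Lcn2* are the best-known early markers of this state, *Sox9* marks tubule cells that are regenerating, and persistent *Vcam1* marks proximal tubule cells that fail to recover. *Krt8*, *Krt20*, *Clu*, *Spp1* and *Timp1* are induced in many kidney disease models, and *Cdkn1a* restrains the cell cycle after damage.

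Depth was even, at 10179648 to 10925100 expected counts per kidney, and 3 counts, taken here as the smallest detectable level, corresponded to 0.263 to 0.304 CPM (counts relative to the library total, scaled with TMM factors). Control 3 and control 4 stood apart from the other 6 kidneys in having no or nearly no Y-linked reads. Summed over 4 Y-linked genes they had 0 and 0.175 CPM, against 76.8 to 94.9 CPM elsewhere. Read as sex, controls 3 and 4 were female and the other 6 kidneys male. The labels name no sex, and the paper states that both sexes were used. All 4 mutants had Y-linked reads, so genotype was partly confounded with this difference in every test of all kidneys. Each tested marker and each list of genes that accompany injury is therefore also given without controls 3 and 4, for 2 controls against 4 mutants. Cell type lists are given in this way only in part. *Sik3* was at 62.9 ± 3.79 CPM in controls and 39.5 ± 4.10 CPM in mutants (SD, n = 4 each) without overlap, with an edgeR p of 3.8e-05 and an FDR of 0.0697. *Sik2*, at 9.14 ± 0.841 and 6.72 ± 2.07 CPM, had a log2 fold change of −0.44 (edgeR p 0.0645, FDR 0.794). *Sik1*, which is floxed by the labels, was higher in all mutants, at 40.8 ± 2.84 and 50.6 ± 4.85 CPM (log2 fold change 0.31, edgeR p 0.00883, FDR 0.601). In the 6 kidneys the log2 fold changes of *Sik3*, *Sik2* and *Sik1* were −0.65, −0.46 and 0.39. Marker genes of proximal tubule, distal nephron and collecting duct, podocytes and inner medulla were present in every kidney. The summed level of 15 mature proximal tubule genes was 14270 to 21490 CPM in controls and 15940 to 19250 CPM in mutants. Nothing in the labels says that kidneys of a group came from separate litters, so p-values measure the spread between these animals only.

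No marker passed the test over all genes, at an FDR under 0.05. *Lcn2* was higher in all 4 mutants than in any control, by 2.0-fold, and so was *Cdkn1a*, by 1.49-fold. *Sox9* was 2.59-fold higher on average, with overlap between groups. The keratin *Krt8* was level, at 1.01-fold, and for *Spp1* and *Clu*, the most abundant markers, the groups overlapped and the average was lower in mutants, in 8 kidneys but not in the 6 with Y-linked reads. *Havcr1* stayed at or under 4.01 CPM in every kidney.

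Of these markers, 8 passed the filter on low counts and were tested with edgeR among 14326 genes, and *Krt20* and *Timp1* were too low to be tested. Of the 8, 3 had an unadjusted p under 0.05 (*Lcn2*, *Sox9* and *Cdkn1a*), all higher in mutants. Among all genes tested, 911 (6.36%) had a p under 0.05, of which 396 (2.76% of genes tested) were higher and 515 (3.59%) lower. The groups did not overlap for 2 of the 8 markers, against 578 genes (4.03%) of all those tested. With an FDR under 0.05 edgeR called 0 markers and 0 genes (0%), and the lowest FDR of any gene was 0.0586. The DESeq2 Wald test called 71 of 18344 genes (0.387%) and none of the markers, with its lowest marker FDR, 0.144, at *Lcn2*. The median log2 fold change of the 8 markers was 0.48 and that of all genes tested was −0.0038, with 6 of the 8 markers and 49.2% of all genes above 0.

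**Figure D1:**
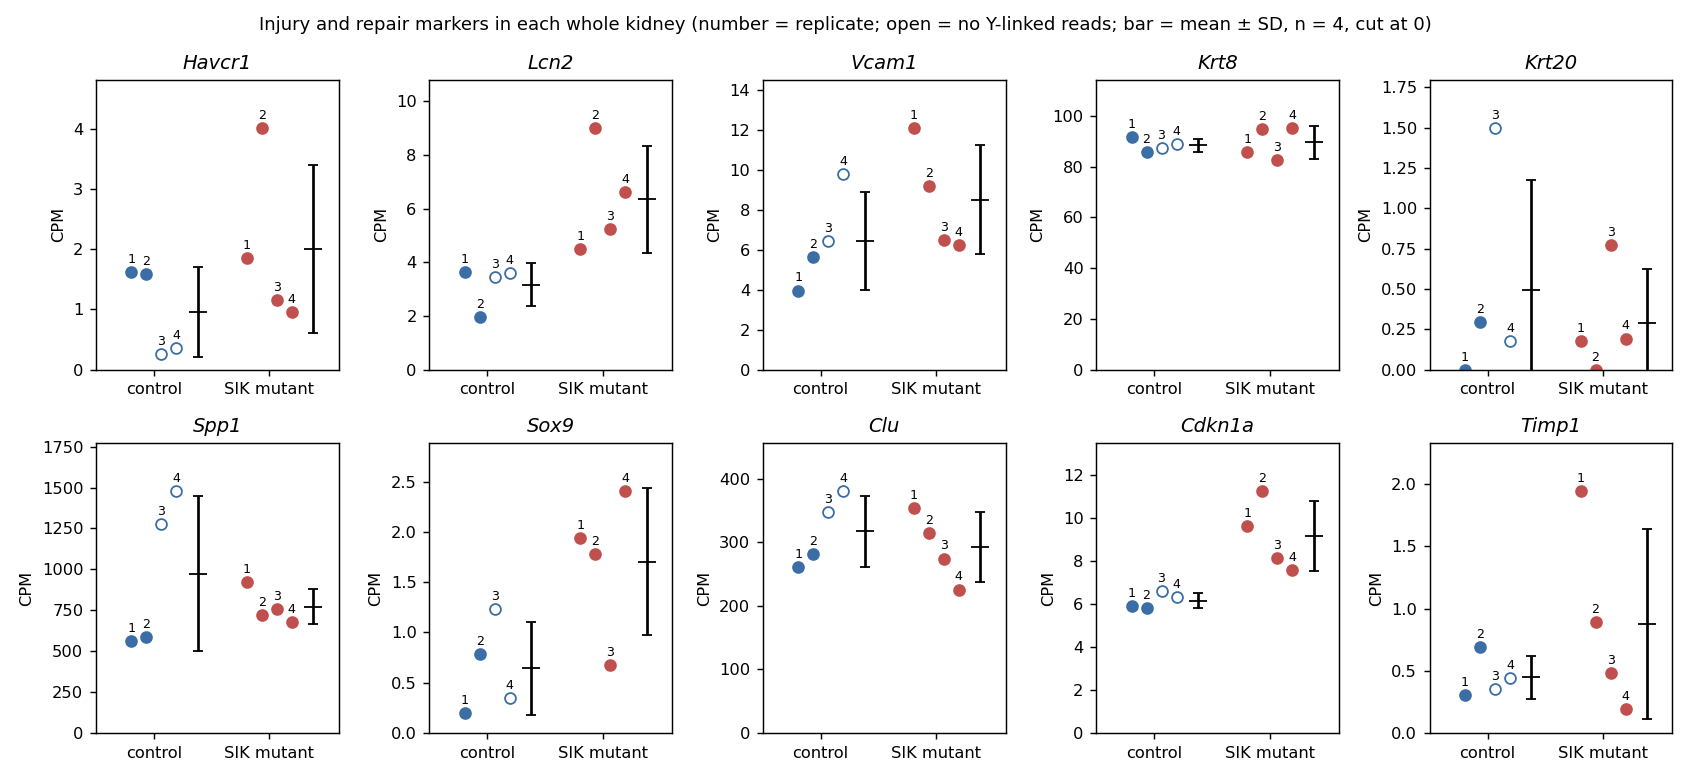
CPM of the 10 markers in each of the 8 kidneys, with replicate numbers beside the points, open points for the 2 controls without Y-linked reads and bars for the mean ± SD (n = 4) cut at 0. *Lcn2* and *Cdkn1a* are the markers whose 4 mutants all lie above the 4 controls, and for *Spp1* the open points, at 1276 and 1477 CPM, are the highest.

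Levels of the markers were compared with each other per transcript length. In controls, the level in TPM (an abundance relative to all transcripts, scaled to gene length) was 851 ± 473 for *Spp1*, 207 ± 54.7 for *Clu* and 51.3 ± 4.54 for *Krt8* (SD, n = 4). *Lcn2* was at 4.58 ± 1.29 TPM, *Cdkn1a* at 3.73 ± 0.615 TPM and *Vcam1* at 2.18 ± 1.14 TPM. *Timp1* (0.728 ± 0.263 TPM), *Havcr1* (0.645 ± 0.493 TPM), *Krt20* (0.31 ± 0.439 TPM) and *Sox9* (0.17 ± 0.127 TPM) were the lowest. Neighbors in this order overlapped in their mean ± SD from *Lcn2* to *Vcam1* and again from *Timp1* to *Sox9*, and did not overlap elsewhere. In mutants the order of the first 8 was the same, with *Spp1* at 702 ± 121 TPM, *Clu* at 203 ± 46.8 TPM, *Krt8* at 55.9 ± 4.32 TPM, *Lcn2* at 9.76 ± 3.38 TPM and *Cdkn1a* at 6.05 ± 1.18 TPM. *Vcam1* followed at 2.96 ± 0.981 TPM, *Timp1* at 1.52 ± 1.34 TPM and *Havcr1* at 1.43 ± 0.803 TPM. *Sox9* (0.468 ± 0.189 TPM) and *Krt20* (0.18 ± 0.220 TPM) were last. RSEM's posterior SD was 0 for 9 of the markers and at most 0.0451% of the count for *Krt8*, so almost none of these values depended on reads shared between genes.

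*Havcr1* (chromosome 11, 46735080 to 46779578, plus strand, GRCm38) encodes KIM-1, a phosphatidylserine receptor that lets injured proximal tubule cells engulf dying neighbors. It was at 1.62, 1.58, 0.264 and 0.350 CPM in controls 1 to 4, and at 1.85, 4.01, 1.16 and 0.962 CPM in mutants 1 to 4. These are 3 to 16 counts in controls and 10 to 45 in mutants. Mutant 2 was the highest kidney, the 2 controls without Y-linked reads were the lowest, and the groups overlapped. The log2 fold change was 1.10 (SE 0.642), with a 95% interval of the fold from 0.789 to 5.80 and an edgeR p of 0.120 (FDR 0.817). A two-sided exact permutation test on CPM gave p = 0.229, where the smallest p that 70 assignments allow is 0.0286. Without mutant 2 the log2 fold change was 0.50, and among the 6 kidneys with Y-linked reads it was 0.33 (edgeR p 0.577). The interval held both no difference and an increase of several fold.

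*Vcam1* (chromosome 3, 116109949 to 116129688, minus strand) encodes an adhesion molecule that binds α4 integrins on leukocytes. Its CPM was 3.96, 5.63, 6.43 and 9.81 in controls and 12.1, 9.19, 6.49 and 6.25 in mutants. Control 4 exceeded 3 of the mutants, and the groups overlapped. The log2 fold change was 0.39 (SE 0.300, edgeR p 0.219, FDR 0.884), the fold interval was 0.825 to 2.09 and the exact permutation p was 0.286. Among the 6 kidneys with Y-linked reads every mutant was above both controls, with a log2 fold change of 0.84 (edgeR p 0.0286, FDR 0.393), and without control 4 alone the edgeR p was 0.0404. Fibroblasts and endothelium also express *Vcam1*. The summed level of 7 fibroblast markers was highest in mutant 1, at 694 CPM, as *Vcam1* was, and ranged from 202 to 461 CPM in controls and from 245 to 694 CPM in mutants. All 7 were tested and above 0 in mutants, with a median log2 fold change of 0.69, and 0 had an edgeR p under 0.05. The 5 endothelial markers summed to 167 to 253 CPM in controls and 164 to 232 CPM in mutants. The part of either cell type in the *Vcam1* values was not tested, and in whole kidney a change in the number of cells of a type cannot be told apart from a change in RNA per cell.

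*Lcn2* (chromosome 2, 32384633 to 32388252, minus strand) encodes NGAL, a secreted lipocalin that binds iron-loaded siderophores and is released into urine by damaged distal and collecting duct cells. Controls were at 3.65, 1.98, 3.43 and 3.59 CPM, and mutants were at 4.5, 9.01, 5.23 and 6.64 CPM. These are 20 to 41 counts in controls and 51 to 101 in mutants. All 4 mutants were above all 4 controls, mutant 2 was the highest and control 2 the lowest. The fold was 2.0 (95% interval 1.31 to 3.06), or 1.0 on the log2 scale (SE 0.273), with an edgeR p of 0.00475 and an FDR of 0.511. The exact permutation p was 0.0286, the smallest 4 against 4 allow. Leaving out each kidney in turn gave log2 fold changes of 0.78 to 1.13 with p from 0.00265 to 0.0163, and the 6 kidneys with Y-linked reads gave 1.18 (edgeR p 0.0104, FDR 0.314).

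Neutrophils store lipocalin-2 in their granules and adipocytes secrete it, so marker genes of both were read beside *Lcn2*. Of 5 neutrophil markers 0 passed the count filter, *Ly6g* was at 0 in every kidney, and their sum was 0.176 to 0.593 CPM in controls and 0.484 to 0.981 CPM in mutants. The 6 adipocyte markers summed to 0, 2.77, 136 and 29.8 CPM in controls and to 124, 95.2, 109 and 157 CPM in mutants. All 5 adipocyte markers that passed the filter were above 0, with a median log2 fold change of 1.52 and 0 at a p under 0.05. In the 6 kidneys with Y-linked reads all 6 were tested, with a median of 6.33. There 4 of the 6 had an edgeR FDR under 0.05, against 0.143% of all genes tested. The part of fat or neutrophil RNA in the *Lcn2* values was not tested. *Slc22a17*, a receptor that takes up lipocalin-2, went the other way, from 50.7 ± 6.39 CPM in controls to 38.4 ± 3.39 CPM in mutants (SD, n = 4 each) without overlap (log2 fold change −0.40, SE 0.110, edgeR p 0.00493, FDR 0.511). Without controls 3 and 4 its log2 fold change was −0.25 (edgeR p 0.0595).

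The sequence before the RefSeq start of *Lcn2* is shown because *Lcn2* and *Cdkn1a* were the markers without overlap. Only bases outside the gene's own GENCODE exons are given, from RefSeq on GRCm38.p6, minus strand, written 5′ to 3′ at chr2:32387798-32387850, which is from 111 to 59 bases before the start. Capitals mark a GC box (GGGCGG on either strand), the binding motif of SP factors.
Lcn2 upstream: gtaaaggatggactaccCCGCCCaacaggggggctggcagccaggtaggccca
Its first base is 94 bases before the start. The 250 bases before this start held no AP-1 site (TGANTCA), CRE core (TGACG), STAT site (TTCNNNGAA), TATAAA, NF-κB consensus or p53 consensus.

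*Spp1* (chromosome 5, 104435118 to 104441050, plus strand) encodes osteopontin, a phosphoprotein of the tubule lumen that binds integrins and calcium crystals and is abundant in the healthy distal nephron. Controls were at 560, 583, 1276 and 1477 CPM and mutants at 924, 723, 759 and 677 CPM. The 4 mutants lay between the controls with Y-linked reads, both lower, and those without, both higher. Over 8 kidneys the log2 fold change was −0.34 (SE 0.309, edgeR p 0.301, FDR 0.903, exact permutation p 0.429). Among the 6 kidneys it was 0.44 (SE 0.139, edgeR p 0.0118, FDR 0.328) and all mutants exceeded both controls, and the DESeq2 FDR in these 6 was 0.0797. The direction for *Spp1* therefore depended on the 2 control kidneys without Y-linked reads. A same-strand gene model, *Gm42793*, overlaps *Spp1* with 2 to 7 counts.

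*Clu* (chromosome 14, 65968483 to 65981547, plus strand) encodes clusterin, a secreted chaperone. Its CPM was 261, 282, 348 and 380 in controls and 354, 315, 275 and 226 in mutants. Control 4 was the highest kidney and mutant 4 the lowest. The log2 fold change of −0.12 (SE 0.167) had an edgeR p of 0.491 (FDR 0.942), the fold interval was 0.711 to 1.19, and the 6 kidneys gave 0.12 (edgeR p 0.499).

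*Timp1* (chromosome X, 20870166 to 20874735, plus strand), an inhibitor of matrix metalloproteinases, was at 0.304, 0.692, 0.352 and 0.438 CPM in controls, which is 3 to 7 counts. Mutants were at 1.94, 0.892, 0.484 and 0.192 CPM, from 22 counts in mutant 1 to 2 counts in mutant 4, which is under the detectable level. Mutant 1, with the most fibroblast marker RNA, was the highest and mutant 4 the lowest of all 8 kidneys. The exact permutation p was 0.343, and among the 6 kidneys, where *Timp1* passed the filter, the log2 fold change was 0.83 (SE 0.856, edgeR p 0.360). *Timp1* lies within *Syn1* on the opposite strand, and use of strand in counting is not stated, but *Syn1* itself had 1 to 6 counts.

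*Krt8* (chromosome 15, 101996698 to 102004482, minus strand), an intermediate filament of simple epithelia, was the steadiest marker. Its CPM was 91.4, 85.7, 87.3 and 88.9 in controls and 85.5, 94.9, 82.6 and 95.2 in mutants. The log2 fold change was 0.02 (SE 0.0774, edgeR p 0.80, FDR 0.983) and the 95% interval of the fold was 0.899 to 1.14. An increase of *Krt8* beyond 1.14-fold was therefore outside the interval of the 8 kidneys. The 6 kidneys gave a log2 fold change of 0.03, with a wider 95% interval of −0.19 to 0.24 on the log2 scale.

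*Krt20* (chromosome 11, 99428403 to 99438150, minus strand) is a keratin of urothelial umbrella cells that appears in injured tubules. It passed the filter neither in 8 nor in the 6 kidneys. It had 0, 3, 17 and 2 counts in controls (0, 0.296, 1.5 and 0.175 CPM) and 2, 0, 8 and 2 counts in mutants (0.177, 0, 0.775 and 0.192 CPM). Only control 3 and mutant 3 were clearly above the detectable level, and control 2 was at it. The exact permutation p was 0.714. The same kidneys had the highest sums of 7 urothelial markers in their groups, at 89.9 CPM in control 3 and 75.7 CPM in mutant 3, where the remaining controls had 11.3 to 31.1 CPM and the remaining mutants 30.01 to 74.2 CPM. The share of urothelium in the *Krt20* values was not tested.

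*Sox9* (chromosome 11, 112782224 to 112787760, plus strand) encodes a transcription factor of kidney development that is switched on again in regenerating tubule cells. Controls were at 0.203, 0.790, 1.23 and 0.350 CPM and mutants at 1.94, 1.78, 0.678 and 2.41 CPM. These are 2, 8, 14 and 4 counts against 22, 20, 7 and 25. Mutants 1, 2 and 4 were above all controls, and mutant 3 lay below control 2 and control 3. The fold was 2.59 (95% interval 1.13 to 5.94), or 1.37 on the log2 scale (SE 0.533), with an edgeR p of 0.0284, an FDR of 0.741 and an exact permutation p of 0.0857. The edgeR p was above 0.05, at up to 0.081, when control 1, control 4, mutant 1, mutant 2 or mutant 4 was left out, and log2 fold changes over the 8 such fits were 1.10 to 1.91. The 6 kidneys gave 1.76 (edgeR p 0.0272, FDR 0.389).

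*Cdkn1a* (chromosome 17, 29090976 to 29100727, plus strand, 2.74 Mb from the floxed *Sik1*) encodes p21, an inhibitor of cyclin-dependent kinases and a classical target of p53. Controls were at 5.89, 5.83, 6.60 and 6.30 CPM and mutants at 9.62, 11.2, 8.14 and 7.60 CPM. These are 58 to 75 counts in controls and 79 to 126 in mutants. All 4 mutants were above all controls, and mutant 2 was the highest kidney, as it was for *Lcn2* and *Havcr1*. The fold was 1.49 (95% interval 1.17 to 1.89), or 0.57 on the log2 scale (SE 0.154), with an edgeR p of 0.00443, an FDR of 0.509 and an exact permutation p of 0.0286. Without each kidney in turn the log2 fold change was 0.46 to 0.65 and p was 0.00263 to 0.0143. Among the 6 kidneys it was 0.65 (edgeR p 0.0118, FDR 0.328).

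RefSeq gives *Cdkn1a* 2 starts, and the bases before both are shown on GRCm38.p6, plus strand, 5′ to 3′. The upstream window is chr17:29090729-29090975 and the downstream window chr17:29093519-29093768. Only bases outside the gene's own GENCODE exons are given, so the upstream window runs from 250 to 4 bases before its start. In the upstream window capitals mark the p53 consensus decamer, and in the downstream window the GC box.
Cdkn1a upstream start: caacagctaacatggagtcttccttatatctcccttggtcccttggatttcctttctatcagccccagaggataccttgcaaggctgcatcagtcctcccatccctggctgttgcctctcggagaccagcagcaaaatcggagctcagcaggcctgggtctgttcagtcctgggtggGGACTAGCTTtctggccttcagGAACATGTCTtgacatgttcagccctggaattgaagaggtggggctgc
Cdkn1a downstream start: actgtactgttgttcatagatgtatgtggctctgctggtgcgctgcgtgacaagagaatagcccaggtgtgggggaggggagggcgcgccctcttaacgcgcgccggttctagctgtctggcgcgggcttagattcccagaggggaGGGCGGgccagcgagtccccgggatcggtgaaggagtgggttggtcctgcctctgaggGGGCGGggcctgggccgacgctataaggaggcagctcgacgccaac
The p53 consensus decamers begin 73 and 51 bases before the upstream start, and the GC boxes begin 104 and 46 bases before the downstream start. A p53 consensus decamer is found in 7.13% and a GC box in 32.7% of all 32851 RefSeq windows of 250 bases, counted on both strands. Promoters were found for 7 of the 10 markers, in 11 windows. *Cdkn1a* was the only marker of these with the p53 consensus. A CRE core, the motif of CREB whose coactivators SIKs regulate, was present in *Havcr1* and *Timp1* windows and occurs in 17.8% of all windows. None of the 11 windows held an AP-1 site (6.75% of all windows), a STAT site (7.02%) or an NF-κB consensus (7.25%), and TATAAA (12.4%) was present for *Krt20* and *Spp1*. A match is a description of these letters and not a bound site.

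**Figure D2:**
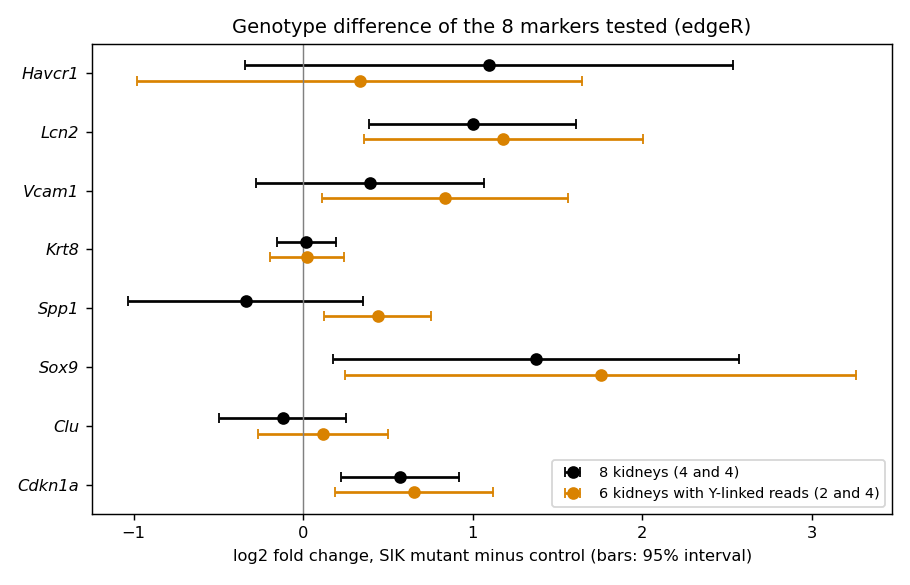
Log2 fold change of the 8 tested markers (SIK mutant minus control, edgeR) with 95% intervals, in black for all 8 kidneys and in orange for the 6 kidneys with Y-linked reads. The black intervals of *Lcn2*, *Sox9* and *Cdkn1a* lie above 0, and *Spp1* is at −0.34 in black and 0.44 in orange.

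Across the 6 kidneys with Y-linked reads, 9 markers were tested and 5 of them (*Lcn2*, *Vcam1*, *Spp1*, *Sox9* and *Cdkn1a*) had an unadjusted p under 0.05, all higher in mutants. Of all 14719 genes tested in these kidneys, 1640 (11.1%) had a p under 0.05. The groups did not overlap for 4 of the 9 (*Lcn2*, *Vcam1*, *Spp1* and *Cdkn1a*), against 3205 genes (21.8%). By FDR, edgeR called 0 of the 9 and 21 of all genes (0.143%). The median log2 fold change of the 9 was 0.65, against 0.0105 for all genes. With 2 controls, these values rest on control 1 and control 2, which had the highest summed proximal tubule markers, at 21400 and 21490 CPM, and the lowest fibroblast sums, at 202 and 235 CPM. In the same comparison 5 of 7 fibroblast, 5 of 7 macrophage, 6 of 7 urothelial and 6 of 6 adipocyte markers had a p under 0.05 and were higher in mutants, and their part in the marker values was not tested.

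No kidney was highest for all markers. Mutant 2 was highest for *Havcr1*, *Lcn2* and *Cdkn1a*, mutant 1 for *Vcam1* and *Timp1*, mutant 4 for *Krt8* and *Sox9*, control 3 for *Krt20*, and control 4 for *Spp1* and *Clu*. Mutant 3 was highest for none and lowest for *Krt8*. Control 1 was lowest for *Vcam1*, *Spp1* and *Sox9*, and shared 0 counts of *Krt20* with mutant 2.

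**Figure D3:**
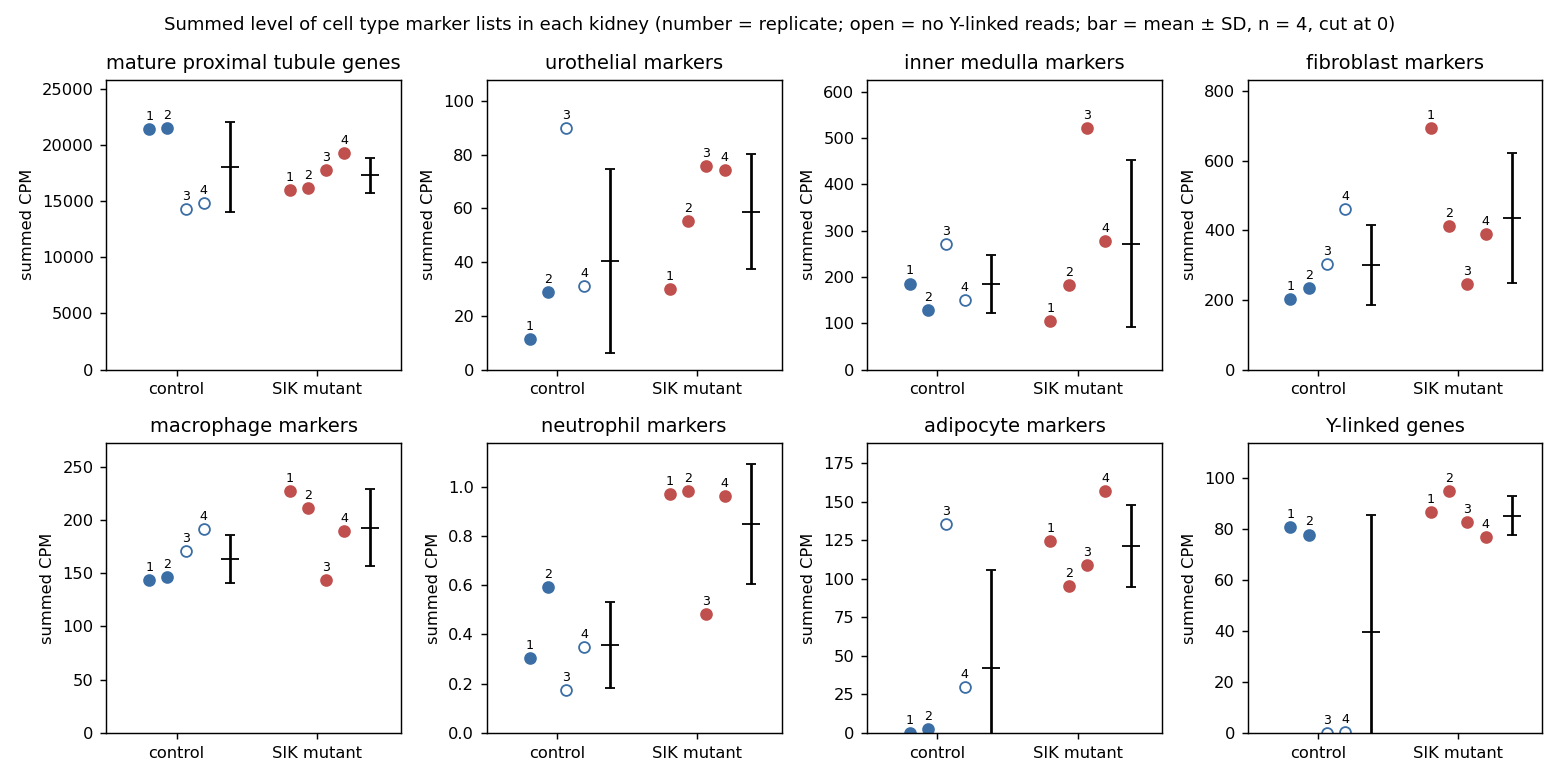
Summed CPM of marker genes of other cell types and of 4 Y-linked genes in each kidney, drawn as in the plot of the 10 markers. The groups overlap in each cell type panel, fibroblast markers are highest in mutant 1 at 694 CPM, and adipocyte markers range from 0 CPM in control 1 to 157 CPM in mutant 4.

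**Figure D4:**
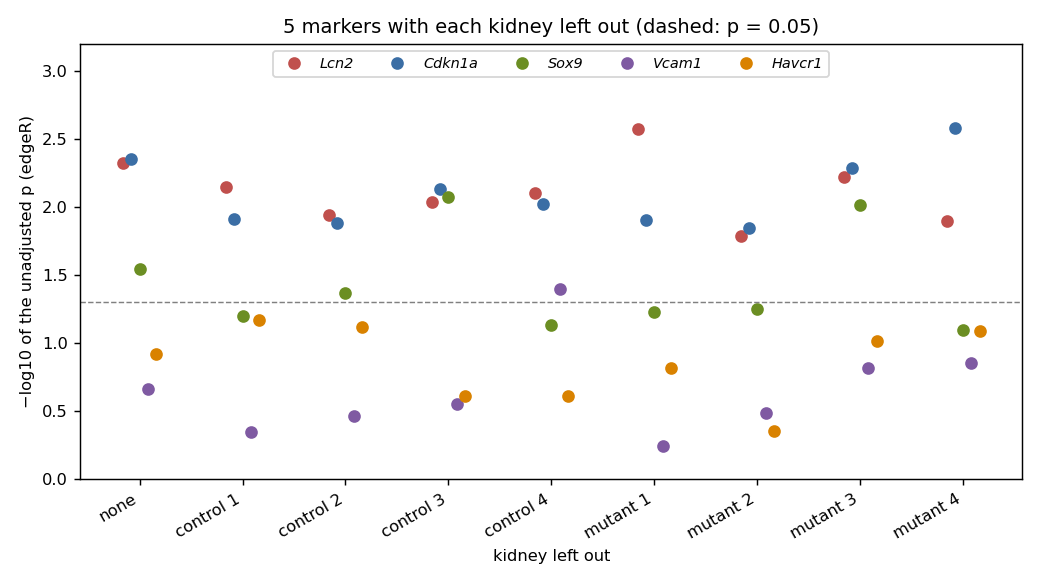
Strength of the edgeR difference, as −log10 of the unadjusted value, for 5 markers with no kidney and with each kidney left out, and a dashed line at the 0.05 threshold. *Lcn2* and *Cdkn1a* lie above the line in all 9 fits, *Sox9* in the full fit and 3 others, and *Havcr1* in none.

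Genes that accompany tubule injury were then read in lists, of which none had a gene with an edgeR FDR under 0.05 over 8 kidneys. Of 12 tested inflammatory and failed-repair tubule genes, 1 had a p under 0.05, *Il34*, a macrophage growth factor made by injured tubules. It was at 13.2 ± 7.78 CPM in controls and 23.3 ± 5.01 CPM in mutants (SD, n = 4 each; log2 fold change 0.83, SE 0.367, edgeR p 0.0493, FDR 0.780). The 2 controls without Y-linked reads had 6.52 and 7.70 CPM of *Il34*, and among the other 6 kidneys its log2 fold change was 0.28 (edgeR p 0.259). The median of the list was 0.11 against −0.0038 for all genes. In the 6 kidneys the median was 0.27 and the gene with a p under 0.05 was *C3*, complement component 3, at 2.74 and 6.03 CPM in controls 1 and 2 and 16.0 to 29.5 CPM in mutants (log2 fold change 2.33, edgeR p 9.5e-05, FDR 0.0524, DESeq2 FDR 1.1e-10). The 2 controls without Y-linked reads had 18.4 and 19.6 CPM of *C3*, and over 8 kidneys its log2 fold change was 0.90 (edgeR p 0.10).

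Of 15 dedifferentiation genes, which include keratins, *Vim*, *Cd24a* and *Prom1*, 13 were above 0, against 49.2% of all genes tested. The median log2 fold change of the list was 0.22. The gene with a p under 0.05 was lower in mutants. It was *Itgb6*, the epithelial integrin subunit that activates latent TGF-β, at 94.5 ± 16.2 CPM in controls and 56.9 ± 9.80 CPM in mutants (SD, n = 4 each) without overlap. Its log2 fold change was −0.73 (SE 0.154, edgeR p 0.000872, FDR 0.351, DESeq2 FDR 0.00976). Among the 6 kidneys 10 of the 15 were higher and 1, *Itgb6*, lower with a p under 0.05. The share of all genes with such a p was 11.1%, and the median of the list was 0.49. *Prom1* had the lowest p there, with a log2 fold change of 0.94 (edgeR p 9.4e-05, FDR 0.0524, DESeq2 FDR 4.3e-07). *Krt18*, *Krt19*, *Cd24a*, *Anxa2* and *S100a6* were higher there with DESeq2 FDR of 0.000555 to 0.0378, in a fit added after seeing the data. Their edgeR FDR in the 6 kidneys was 0.106 to 0.291, and over 8 kidneys their edgeR p was 0.190 to 0.349. Control 3 was the highest of the 8 kidneys for *Krt19*, *Cd24a*, *Anxa2* and *S100a6*, at 15.2, 211, 53.7 and 26.4 CPM. Controls 3 and 4 had 149 and 154 CPM of *Prom1* and mutants 102 to 142 CPM. Over 8 kidneys its log2 fold change was 0.17 (edgeR p 0.575).

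Besides *Cdkn1a*, 13 p53 and cell-cycle arrest genes were tested, with a median log2 fold change of 0.035. *Phlda3*, a p53 target that restrains AKT, was at 3.61 ± 1.42 CPM in controls and 5.91 ± 1.18 CPM in mutants (SD, n = 4 each; log2 fold change 0.70, SE 0.276, edgeR p 0.0297, FDR 0.742). It was the sole gene of the 13 with a p under 0.05, and *Cdkn2a*, a senescence marker, had 0 counts in every kidney. In the 6 kidneys *Phlda3* was at 1.22 (edgeR p 0.00142, FDR 0.186), *Trp53inp1* was lower at −0.38 (edgeR p 0.0201) and the median of the 13 was −0.067. Of 15 proliferation genes 13 were above 0, against 49.2% of all genes tested, with a median of 0.38. Of the 15, 1 had a p under 0.05. It was the replication helicase subunit *Mcm2*, at 11.8 ± 2.13 CPM in controls and 16.5 ± 4.06 CPM in mutants (SD, n = 4 each; log2 fold change 0.48, SE 0.195, edgeR p 0.0335, FDR 0.754). Without controls 3 and 4 *Mcm2* was at 0.42 (edgeR p 0.0920), 0 of the 15 had a p under 0.05 and the median was 0.19. Summed over the list, mutant 1 had 203 CPM, the remaining mutants 78.9 to 98.5 CPM and controls 88.4 to 123 CPM. In single left-out fits *Il34* kept a p under 0.05 in 2 of 8, *Phlda3* in 5 and *Mcm2* in 5, with p up to 0.118, 0.0898 and 0.111. For *Il34* the fits without control 2, control 3, control 4, mutant 2, mutant 3 or mutant 4 did not, for *Phlda3* those without control 1, control 2 or mutant 3, and for *Mcm2* those without control 3, mutant 1 or mutant 2.

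The gene with the lowest p in these lists was *Nqo1*, an NRF2-induced quinone reductase, among 13 tested oxidative, heat shock and ER stress genes. It was at 31.3, 31.6, 35.9 and 22.8 CPM in controls and 51.9, 54.0, 50.7 and 52.3 CPM in mutants, without overlap. The log2 fold change was 0.78 (SE 0.127, edgeR p 0.000129, FDR 0.124). DESeq2 gave an FDR of 0.000144, and edgeR an FDR of 0.0227 among the 6 kidneys. It was the sole gene of its list with a p under 0.05, and the median of the list was 0.12, or 0.050 in the 6 kidneys. Other NRF2 targets in the list, *Gclc*, *Gclm*, *Srxn1*, *Txnrd1* and *Hmox1*, had edgeR p of 0.0674 or more.

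Of 9 tested profibrotic genes 0 had a p under 0.05, and the median was −0.018. In the 6 kidneys 11.1% of all genes tested had an edgeR p under 0.05, and the counts of each list below stand beside that share. Of the profibrotic genes 2 of 10, *Fn1* (0.92, edgeR p 0.0443) and *Tnc* (0.91, edgeR p 0.0179), were higher there and the median was 0.16. *Itgav*, the most abundant by TPM, was at 66.3 ± 4.98 CPM in controls and 66.1 ± 9.40 CPM in mutants, and *Fn1*, fibronectin, at 49.6 ± 22.9 and 62.4 ± 32.8 CPM (SD, n = 4 each). Of 8 other urinary damage markers 0 had a p under 0.05, with a median of −0.019. Without controls 3 and 4, 2 of 8, *Timp2* (0.74, edgeR p 0.00361, DESeq2 FDR 0.0134) and *Fabp1* (1.73, edgeR p 0.0151), were higher and the median was 0.11. *Igfbp7* was at 1260 ± 182 CPM in controls and 1058 ± 46.2 CPM in mutants, and *Umod*, uromodulin of the thick ascending limb, at 2555 ± 199 and 2543 ± 416 CPM (SD, n = 4 each). Among 13 binding partners and family members of the markers, *Slc22a17* was the sole gene with a p under 0.05, and the median was 0.00094. Among the 6 kidneys 3 of them had a p under 0.05, the metalloproteinases *Mmp2* (1.33) and *Mmp14* (0.91) higher and *Timd2* (−0.53) lower. Mature proximal tubule genes, which fall in injured tubules, had a median of −0.094 over 15 genes, with 1, *Miox*, lower at an edgeR p of 0.0194. In the 6 kidneys 4 of the 15 were lower with a p under 0.05, *Miox* was at −0.27 (edgeR p 0.0857) and the median was −0.18.

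**Figure D5:**
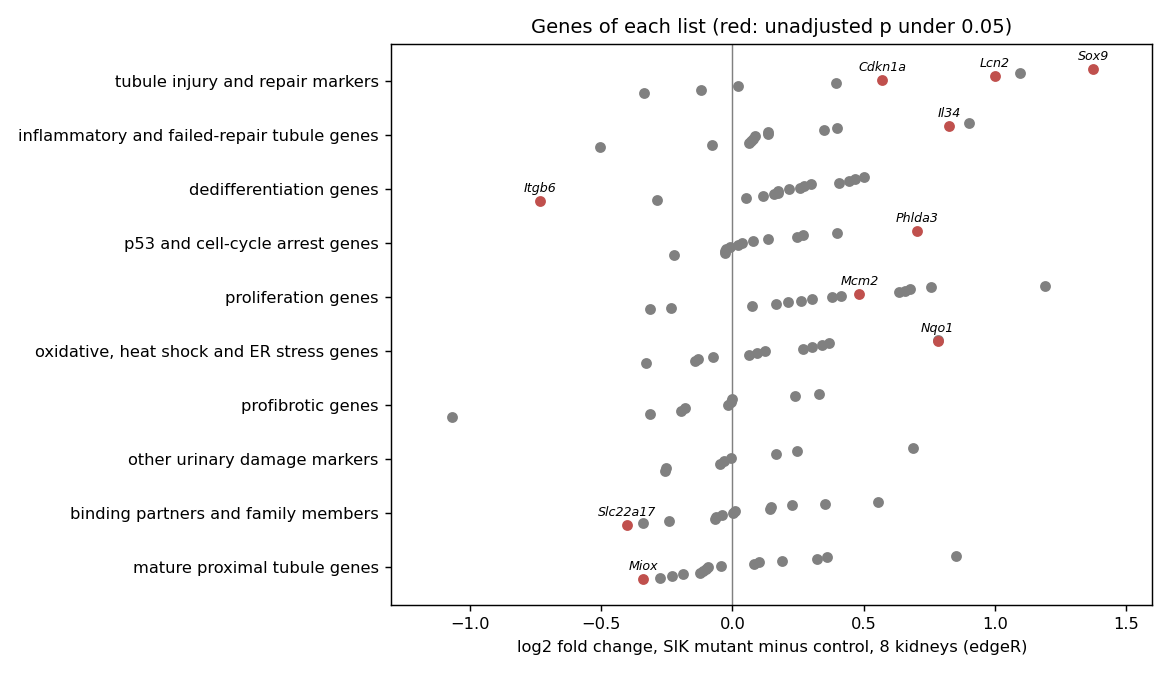
Log2 fold change (SIK mutant minus control, edgeR, 8 kidneys) of every tested gene of the markers, the 8 pathway lists and the mature proximal tubule list, with genes at an unadjusted p under 0.05 in red and named. Red genes number 3 among the injury and repair markers and at most 1 in each of the other 9 lists drawn. *Itgb6* at −0.73, *Slc22a17* at −0.40 and the proximal tubule gene *Miox* are on the lower side.

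Macrophage markers were read as well, since *Vcam1*, *Il34* and *Lcn2* are linked to macrophages. All 7 were tested and above 0 in mutants, with a median log2 fold change of 0.18, and their sum was 144 to 192 CPM in controls and 144 to 227 CPM in mutants. *Lyz2*, lysozyme of macrophages and neutrophils, was at 15.4 ± 4.01 CPM in controls and 29.0 ± 9.05 CPM in mutants (SD, n = 4 each; log2 fold change 0.91, SE 0.263, edgeR p 0.00651, FDR 0.572). *Adgre1*, which encodes F4/80, had a log2 fold change of 0.76 (SE 0.291, edgeR p 0.0275, FDR 0.736), and its p was up to 0.0936 without control 1, control 2 or mutant 1. Among the 6 kidneys *Lyz2* was at 1.14 (edgeR p 0.0066) and *Adgre1* at 1.19 (edgeR p 0.00806), with a median of 0.63 for the list. Their part in the injury marker values was not tested.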

How the data were processed

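Whole kidneys of 4 control and 4 SIK mutant mice were sequenced on a BGISEQ500, with groups and replicate numbers as the titles give them. The authors quantified each kidney separately with RSEM and deposited expected counts (estimated reads per gene, not normalized), TPM values, effective lengths and the posterior SD of each count. Submitters' processing notes name FastQC, STAR 2.7.2b, RSEM 1.3.0 and DESeq2 on mm10. The annotation release and use of strand are not given in the sources used here. Gene symbols and GRCm38 coordinates came from GENCODE M21, which matched 55141 of 55401 genes without ID version.

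Expected counts were rounded. For the main test, edgeR 4.0.16 was run with quasi-likelihood F tests (R 4.3.3, TMM, filterByExpr, legacy mode, no covariate), adjusted by Benjamini-Hochberg over 14326 genes. SE was the log2 fold change over the root of F. For single genes, CPM values were compared by exact permutation (two-sided, 70 assignments). Alternatives were other size factors, DESeq2 1.42.0, limma-voom and limma-trend (limma 3.58.1) on log2(TPM + 1) and log2(TPM + 0.1), other filters, an effective-length offset, a replicate block, a Y-linked covariate, the 6 kidneys with Y-linked reads and removal of each kidney. The code was tested on simulated data. Pairs of kidneys in a group differed beyond sampling noise (chi-square per degree of freedom 9.44 to 53.9), so none was a duplicate. Control 1 or 2 against control 3 or 4, which lacked Y-linked reads, gave 38.4 to 53.9. Controls 1 and 2 gave 9.76 against each other, and controls 3 and 4 gave 9.83. Libraries carry no molecular identifiers, so the 3-count floor covers counting error only.

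The members and lists were chosen with earlier results of these data known, as were the motifs. All markers were named. From each other list, genes with p under 0.05 (at most 4) or, failing these, the 2 with the highest TPM were named, with further genes of the lists named as examples of their content and those named for the 6 kidneys alone chosen after their values were seen. *Chi3l1* was not analysed here.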

Additional observations from a re-analysis of the deposited data

Results flagged for a closer look

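In the controls, *Lcn2* in control 2, at 1.98 CPM, lay far below the other 3, which were at 3.43 to 3.65 CPM. The gap to the next control was 0.869 of the whole range, past the 95% limit of Dixon's test. Among 50 groups of 4 kidneys examined for the named genes, 1 had such a sample, where chance at 1 in 20 gives 2.5. Without control 2 the *Lcn2* difference is included in the range given above for single kidneys left out.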

How the results depend on the processing

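Directions of *Lcn2*, *Cdkn1a*, *Sox9*, *Vcam1* and *Havcr1* were kept in all alternatives that gave a value. *Lcn2* and *Cdkn1a* had an unadjusted p under 0.05 in 22 of 22, *Sox9* in 15 of 21 and *Havcr1* in 1 of 21, and no marker reached an FDR under 0.05 in any. *Spp1* turned positive with the Y-linked covariate (0.43), in the 6 kidneys (0.44) and in their DESeq2 fit (0.44), which was added after seeing the data. *Clu* did so too (0.10, 0.12 and 0.11). *Krt8* was −0.0088 without mutant 2 and −0.011 without mutant 4, in a range of −0.011 to 0.057 with a kidney left out. With the Y-linked covariate, in the 6 kidneys and in their DESeq2 fit, 5 markers had a p under 0.05. In the 6 kidneys 4 did not overlap, as did 21.8% of all genes tested there. These settings are close to a single contrast, since the covariate mainly sets controls 3 and 4 apart, so they do not count as separate support. With each kidney left out, 2 to 3 markers had a p under 0.05. The median log2 fold change of all markers tested in these fits was 0.36 to 0.63. A mean of at least 50 counts left out *Havcr1* and *Sox9* and gave a median of 0.205. Over all genes, FDR calls numbered 71 (DESeq2), 2 (limma-voom), 1 (legacy off), 4 and 5 (limma-trend on TPM + 1 and TPM + 0.1), 9 (no filter), 23 (Y-linked covariate), 21 (6 kidneys), 185 (6 kidneys, DESeq2) and 0 to 1 with a kidney left out. Genes with p under 0.05 numbered 1687 (Y-linked covariate), 1640 (6 kidneys) and 593 (without mutant 2) to 1181 with a kidney left out. Fits with the covariate and of the 6 kidneys account for the difference in Y-linked reads, which was partly confounded with genotype. The cause of these shifts, sex included, was not tested.

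Same-numbered kidneys did not deviate together (correlations −0.175, 0.0479, 0.0557 and −0.318), so the numbers do not pair them. With the replicate block 657 genes and 3 markers had a p under 0.05 (*Lcn2* 0.0227, *Cdkn1a* 0.0194, *Havcr1* 0.0234), and *Sox9* was at 0.0749.

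Values near 0 changed sign for *Itgav* (0.0013 with RLE factors, 0.0029 with DESeq2, 0.082 and 0.086 with limma-trend, 0.053 with the covariate, 0.072 in the 6 kidneys, 0.067 in their DESeq2 fit, −0.099 to 0.064 with a kidney left out) and *Umod* (0.00023 with DESeq2, 0.0888 in both limma-trend fits, 0.065 with the covariate, 0.080 in the 6 kidneys, 0.074 in their DESeq2 fit, −0.12 to 0.055 with a kidney left out). *Fn1* was −0.10 without mutant 1 and up to 0.68 without another kidney. Depth limits *Havcr1*, *Sox9*, *Timp1* and *Krt20*, which had under 50 counts in every kidney.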
